A study of Aspergillus niger with 27 samples.

Results

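The comparison set mycelium of Aspergillus niger over the last numbered compartment of a plate, wheat bran compartment 9, against mycelium of the same colony over the first, glucose compartment 1. Its members were the 6 libraries labelled with these compartments, 3 from wheat bran 9 and 3 from glucose 1, of 27 libraries in the series. Each plate (A, B or C) carried 1 colony, grown outward from a central inoculum over 9 physically separate compartments of liquid medium, and gave 1 library per compartment. Compartments 1 to 3 held glucose, 4 to 6 sugar beet pulp and 7 to 9 wheat bran. A perforated polycarbonate membrane kept hyphae out of the medium and let proteins and metabolites pass. Whether any influence between compartments ran through the mycelium alone was not tested. The labels give no strain, growth time, added agent or position of a compartment. If the numbers ran around the plate, compartments 9 and 1 were neighbours with different carbon sources, but the labels do not say which compartments of a section bordered another substrate. The 3 plates are separate colonies, and the replicate of every comparison is the plate.

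Glucose is taken up and used directly by the fungus, and in Aspergillus it is known to repress many genes for the use of other carbon sources through the regulator CreA. Wheat bran is rich in arabinoxylan and starch, polymers that A. niger opens with secreted enzymes, whose genes are known to answer to regulators such as XlnR and AmyR. A colony that spans both substrates holds hyphae that share cytoplasm across septa, so carbon and signals can in principle move between its zones. The deposited table names genes by numbered IDs beginning with NRRL3 and gives them no name or function. Of its 11846 IDs, 0 were found in the reference gene table used here, so genes are given by ID, without a role, and 11 lists of enzyme and pathway genes could not be applied.

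The wheat bran 9 libraries stood apart as libraries. They held 11847598, 8006891 and 8841735 counts on plates A, B and C, below the 12078576 to 24501824 of the 24 other libraries, and glucose 1 held 15839784, 19167143 and 19406653. The 20 genes with most counts took 40.0% ± 4.24 of the counts on wheat bran 9 and 27.9% ± 7.22 on glucose 1 (SD, n = 3 plates). At least 10 counts were reached by 8646 ± 530 genes on wheat bran 9 and 10360 ± 133 on glucose 1. The factors that edgeR's TMM method gives to correct for such a composition were 0.538, 0.651 and 0.462 on wheat bran 9, all below the 0.729 to 1.56 of the other libraries, against 0.772, 1.37 and 0.911 on glucose 1. Levels below are CPM, counts scaled to a common library total with these factors. In a bulk sample, fewer cells of a kind and less RNA per cell cannot be told apart.

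The glucose 1 libraries differed among themselves, most between plates A and B. Between these the root mean square difference in log2 CPM over 10990 genes was 1.20, with 0.81 between plates A and C and 0.78 between B and C, against 0.49 to 1.03 between plates in the 7 compartments other than 1 and 9, and 0.89 to 1.14 among the wheat bran 9 libraries. On plate B, glucose 1 lay nearest to sugar beet pulp 5, at 0.66, and at 0.92 and 1.02 from the other glucose compartments. On plate C it lay nearest to sugar beet pulp 4 (0.62) and then glucose 2 (0.64), and on plate A nearest to glucose 2 (0.84). Whether the compartment labels of these libraries are right was not tested, and every value for glucose 1 rests on them. Since glucose 1 of plate B lay nearest to another substrate by the widest margin, results are also given without plate B or without this library where this changes them, and without plate A where that does. Of the genes named below, NRRL3_4008, NRRL3_7876, NRRL3_5487, NRRL3_4870, NRRL3_6518, NRRL3_7281, NRRL3_3709, NRRL3_10014 and NRRL3_701 kept their call in both fits.

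Wheat bran 9 was the compartment farthest from glucose 1 on plates B and C, but not on plate A. The difference between them was 1.17 on plate A, 1.65 on plate B and 1.51 on plate C, a mean of 1.44 ± 0.243 (SD, n = 3 plates). Seen from wheat bran 9, glucose 1 was the nearest of the 8 other compartments on plate A, ahead of wheat bran 8 at 1.30 and wheat bran 7 at 1.35. On plate C it came second, after wheat bran 8 at 1.18 and before wheat bran 7 at 1.67. On plate B it came sixth, while wheat bran 8 was nearest at 0.91 and glucose 3, at 1.31, was the nearest compartment off wheat bran. Sugar beet pulp 5 and 6 were far from wheat bran 9 on each plate, at 1.68 to 1.91. Glucose 3 lay in that range on plates A and C, at 1.85 and 1.82. The place of glucose 1 in these orders was the same with library size scaling, with DESeq2 size factors, without a filter on low counts and with all libraries thinned to the same total.

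**Figure D1:**
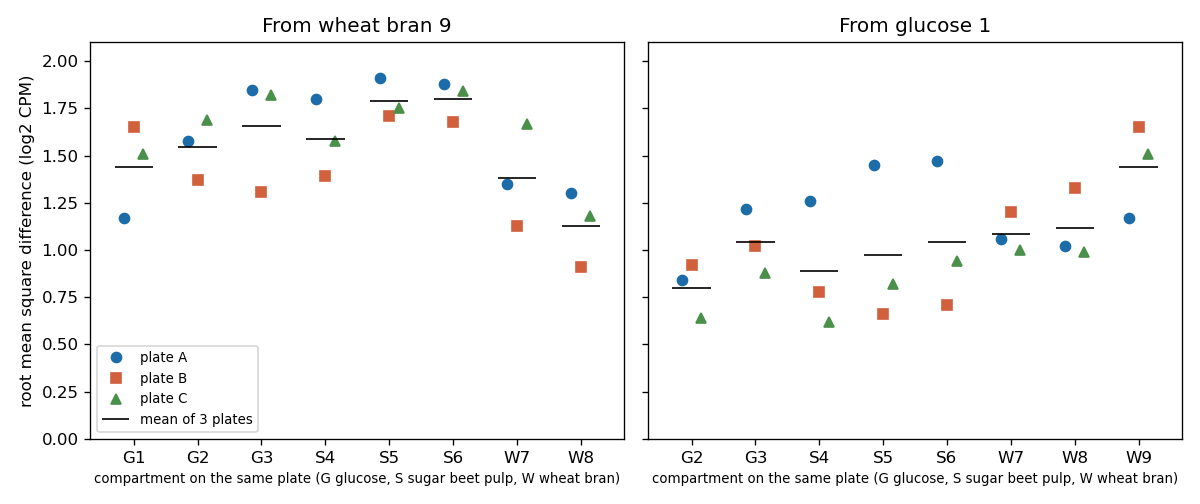
Root mean square difference in log2 CPM over 10990 genes between wheat bran 9 (left) or glucose 1 (right) and each other compartment of the same plate; points are plates A, B and C and lines their mean. Glucose 1 is the nearest compartment to wheat bran 9 on plate A, at 1.17, and the sixth nearest on plate B, at 1.65.

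Expression differed over a large part of the genome between wheat bran 9 and glucose 1. With edgeR's quasi-likelihood F-test (two-sided, plate as a block, Benjamini-Hochberg adjusted p under 0.05), 4474 of 10990 genes passed, 40.7% of those tested. Of these, 2114 (19.2%) were higher on wheat bran 9 and 2360 (21.5%) lower. Most were sizeable changes, with 1798 rising and 2040 falling by at least 2-fold, 581 and 649 by at least 4-fold, and 43 and 23 by at least 16-fold. Calls were more frequent among genes with more counts, at 25% of the 3664 genes with the lowest mean log2 CPM, 45% of the next 3663 and 52.1% of the 3663 with the highest. Among the lowest more genes rose (592) than fell (325), and among the highest fewer rose (848) than fell (1062).

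The plates went the same way for most called genes, but the calls came from these same libraries, and the test favours such genes. Of the 4474, 4220 (94.3%) had the same direction on all 3 plates, and the share among all genes tested was not counted. For 1813 of the 2114 higher genes every wheat bran 9 library lay above every glucose 1 library, where 20% of all genes tested did so. For 1890 of the 2360 lower genes every wheat bran 9 library lay below every glucose 1 library, against 20.6% of all genes. The size of the difference varied with the plate. The median log2 difference of the higher genes was 1.14 on plate A, 1.87 on plate B and 1.58 on plate C, and of the lower genes -1.10, -1.78 and -1.64. Without plate B 2897 genes passed, 1442 higher and 1455 lower, and without only the glucose 1 library of plate B 3369 passed, 1660 and 1709. Without plate C 1612 passed, 761 and 851, without plate A 4584, and without only the glucose 1 library of plate A 5111.

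The split between higher and lower genes depended on the scaling. Scaling by library size alone leaves the low TMM factors of wheat bran 9 out. Over all genes tested, the median log2 fold change then went from -0.08 to -0.98, and the called genes split into 793 higher and 4945 lower. Genes called higher took 62% ± 2.18 of the counts on wheat bran 9 and 25.8% ± 8.52 on glucose 1, and genes called lower 4.36% ± 0.707 and 22.6% ± 6.91 (SD, n = 3 plates). Whether an average gene rose or fell between these compartments therefore cannot be read apart from the scaling.

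**Figure D2:**
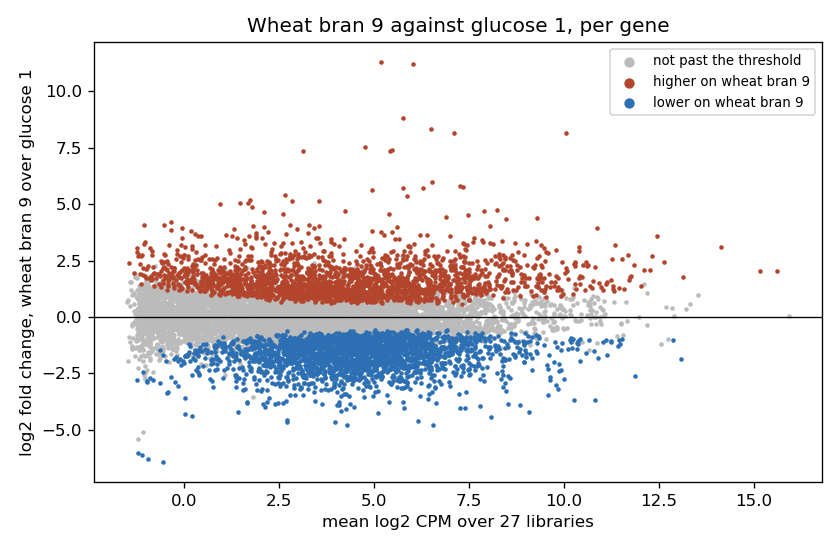
Log2 fold change of wheat bran 9 over glucose 1 against the mean log2 CPM over 27 libraries, 1 point per gene for 10990 genes. Coloured points are the 2114 higher and 2360 lower genes at an adjusted p under 0.05.

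The genes that rose most were all but silent on glucose 1. NRRL3_4008 had 212, 214 and 481 CPM on wheat bran 9 of plates A, B and C, and 0.163, 0.152 and 0.170 CPM on glucose 1. Every wheat bran 9 library lay far above every glucose 1 library, and the log2 fold change was 11.22 (SE 1.02, edgeR quasi-likelihood adjusted p = 2.7e-07). That size rests on 9 counts on glucose 1. NRRL3_7876 had 104, 202 and 280 CPM on wheat bran 9, while the glucose 1 library of plate A held 0 counts of it and those of plates B and C 0.152 and 0.113 CPM. Its log2 fold change was 11.28 (SE 1.28, adjusted p = 2.9e-06 in the same edgeR fit), a size that rests on 6 counts on glucose 1. Both genes were also high on the other wheat bran compartments, at 122 ± 101 and 164 ± 163 CPM on wheat bran 7 and 8 for NRRL3_4008 and 50.5 ± 53.4 and 83.9 ± 94.7 for NRRL3_7876. Neither was shown to differ more between 9 and 1 than between 8 and 2, with adjusted p of 0.27 and 0.68 for the difference by edgeR.

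The named genes that fell most had their lowest mean on wheat bran 9. NRRL3_5487 had 2.67, 3.45 and 3.43 CPM on wheat bran 9, and 33.0, 120.3 and 100.6 CPM on glucose 1. The groups did not overlap, and the log2 fold change was -4.78 (SE 0.53, edgeR adjusted p = 1.5e-06). On the other 7 compartments its mean ran from 38.9 ± 23.0 CPM on wheat bran 8 to 150 ± 35.5 on sugar beet pulp 6. NRRL3_4870 had 0.627, 0.959 and 0.245 CPM on wheat bran 9, and 3.76, 34.9 and 9.73 on glucose 1, where plate B was highest. Its log2 fold change was -4.80 (SE 0.94, edgeR adjusted p = 4.2e-04), and -3.17 without the glucose 1 library of plate B. This size rests on 10 counts on wheat bran 9. Its means elsewhere ran from 5.45 ± 4.62 on wheat bran 8, with 2.85 and 2.72 on plates B and C, to 45.0 ± 8.06 on sugar beet pulp 6. The fall of NRRL3_4870 was not shown to differ from that in 8 over 2, at -3.56 (edgeR adjusted p = 0.056), but did from 7 over 3, at -3.47 (edgeR adjusted p = 0.039). For NRRL3_5487 these were -3.37 and -4.10 (edgeR adjusted p = 0.0055 and 6.3e-04).

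The largest shifts in counts came from genes that took a high share of each library. NRRL3_1234 had 206048, 125605 and 232247 CPM on wheat bran 9, and 89907, 8919 and 36568 on glucose 1. NRRL3_2050 had 121625, 112216 and 184287 CPM on wheat bran 9, and 60916, 8651 and 26669 on glucose 1. For both, every wheat bran 9 library lay above every glucose 1 library, with plate B lowest and plate A highest on glucose 1. The log2 fold changes were 2.05 (SE 0.65) and 2.03 (SE 0.63), with edgeR adjusted p of 0.016 and 0.014. Both calls were lost without the glucose 1 library of plate B, at 1.49 and 1.48 with edgeR adjusted p of 0.055 and 0.052. Without the glucose 1 library of plate A they were 3.13 and 3.09, with edgeR adjusted p of 0.001 and 0.00077. The calls were also lost without plate C (1.77 and 1.65), without its glucose 1 library (1.92 and 1.89) and without its wheat bran 9 library (1.84 and 1.73). As a share of all counts, the pair took 17.4% ± 1.86 on wheat bran 9 and 6.59% ± 4.65 on glucose 1. Neither gene was called in 8 over 2 (log2 fold changes of 0.19 and -0.01) or in 7 over 3 (0.43 and 0.25). Nor was the difference in 9 over 1 shown to differ from that in 8 over 2 (edgeR adjusted p = 0.18 and 0.13). The same held against 7 over 3 (edgeR adjusted p = 0.21 and 0.15).

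NRRL3_6518 and NRRL3_7281 showed the largest falls in CPM. NRRL3_6518 had 1949, 3360 and 4334 CPM on wheat bran 9, and 13036, 7371 and 11825 on glucose 1. NRRL3_7281 had 696, 879 and 1108 CPM on wheat bran 9, and 5743, 3794 and 6763 on glucose 1. Neither gene's groups overlapped, and the log2 fold changes were -1.86 (SE 0.49, edgeR adjusted p = 0.0048) and -2.62 (SE 0.36, adjusted p = 1.5e-05). On wheat bran 7 and 8 NRRL3_6518 had 10056 ± 1322 and 10499 ± 2202 CPM, near its glucose 1 level of 10744 ± 2983.

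Among higher genes whose next ID was tested, 23.4% had a next ID that was also higher, where 19.2% of all genes were higher, and among lower genes 26.2% had a lower next ID, where 21.5% of all genes were lower. These shares lie near those of all genes, and the difference was not tested. Whether the numbers follow the order of genes on the chromosomes was not tested here, and reads shared by overlapping neighbours could be counted for both. The longest run of higher genes, chosen after its values were seen, covered 8 IDs from NRRL3_1333 to NRRL3_1340. Summed over the 8, expression was 2860, 4340 and 6280 CPM on wheat bran 9 of plates A, B and C, and 47.5, 61.5 and 47.9 CPM on glucose 1. The log2 fold changes ran from 3.48 to 8.17 with a median of 5.66, and the largest of the 8 edgeR adjusted p was 6.9e-05. NRRL3_1338 made up most of the sum, at 3120 ± 1100 CPM on wheat bran 9 against 11.8 ± 4.38 on glucose 1. All 8 were also called higher in wheat bran 8 against glucose 2 and in wheat bran 7 against glucose 3. Of all genes 8.71% and 9.37% were called higher there. The sum of the 8 was 46.7 to 134 CPM in the sugar beet pulp libraries. Without plate B, and without its glucose 1 library alone, 8 of the 8 were still called higher in 9 against 1. These fits reuse libraries that chose the run and are not separate support. The longest run of lower genes held 7 IDs, with log2 fold changes of -2.67 to -0.94.

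The same substrates were also compared in pairs of compartments that share no library with 9 and 1. Wheat bran 8 against glucose 2 gave 1693 called genes, 15.4% of 10990, with 957 higher (8.71%) and 736 lower (6.7%) on wheat bran. Wheat bran 7 against glucose 3 gave 1831 (16.7%), with 1030 higher (9.37%) and 801 lower (7.29%). All 3 pairs come from the same colonies and the same fit. Of the 957 genes higher on wheat bran 8, 502 were also called higher on wheat bran 9 against glucose 1. This is 52.5% of that list, against 19.2% of all genes, and 23.7% of the 2114, against 8.71% of all genes. The median log2 fold change of the 957 was 1.93 in the pair that chose them and 1.71 in 7 against 3. In 9 against 1 it was 1.20, where the median of all genes was -0.08. Of the 736 genes lower on wheat bran 8, 417 were also lower in 9 against 1. This is 56.7% of the list, against 21.5% of all genes, and 17.7% of the 2360, against 6.7% of all genes. The medians of the 736 were -1.43, -1.22 and -1.20. Without plate B, the medians in 9 against 1 were 1.22 and -0.96. A further 1531 higher and 1823 lower genes were called in 9 against 1 and in neither other pair, which does not by itself show a difference between pairs.

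Whether the wheat bran to glucose difference itself differed between pairs was tested as an interaction. The difference of 9 over 1 differed from that of 8 over 2 in 1105 genes (10.1%) by edgeR's quasi-likelihood F-test, 346 with a higher and 759 with a lower value in 9 over 1. It differed from that of 7 over 3 in 2294 genes (20.9%), 951 higher and 1343 lower. The other 2 pairs were not shown to differ from each other, with 0 genes by edgeR, 0 by DESeq2, and 195 whose edgeR p was below 0.05 before adjustment. For the genes that separated 9 over 1 from 8 over 2, the step between wheat bran 9 and 8 was larger than that between glucose 1 and 2 for 310 of the 346 and 663 of the 759. These genes were chosen from the same compartments, so this split is not a separate result. Over all genes tested, the mean root mean square step was also larger between wheat bran 9 and 8, at 1.13, than between glucose 1 and 2, at 0.80. On plate B these steps were 0.91 and 0.92. In the 759, the median log2 fold change was -1.75 in 9 over 1 and 0.08 in 8 over 2, with median steps of -1.64 from wheat bran 8 to 9 and 0.15 from glucose 2 to 1.

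Calls fell in the pairs and in these interactions on leaving out plate C. Without it 1612 genes passed in 9 against 1, 266 in 8 against 2 and 221 in 7 against 3. In either interaction 0 genes passed without plate C, against 416 and 1699 without plate B and 455 and 2644 without plate A. Without the wheat bran 9 library of plate C alone the counts were 526 and 1453, without its glucose 1 library 632 and 1547, without the glucose 1 library of plate A 1730 and 2823, and without that of plate B 1091 and 2363. With library size scaling the first gave 64 higher and 2065 lower genes, and the second 244 and 2435. Fits of only the compartments concerned, which share no spread with the others, gave 606 and 420 genes. The median SD of log2 CPM between plates was 0.50 on glucose 1 and 0.47 on wheat bran 9. In the other compartments it ran from 0.29 to 0.47.

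**Figure D3:**
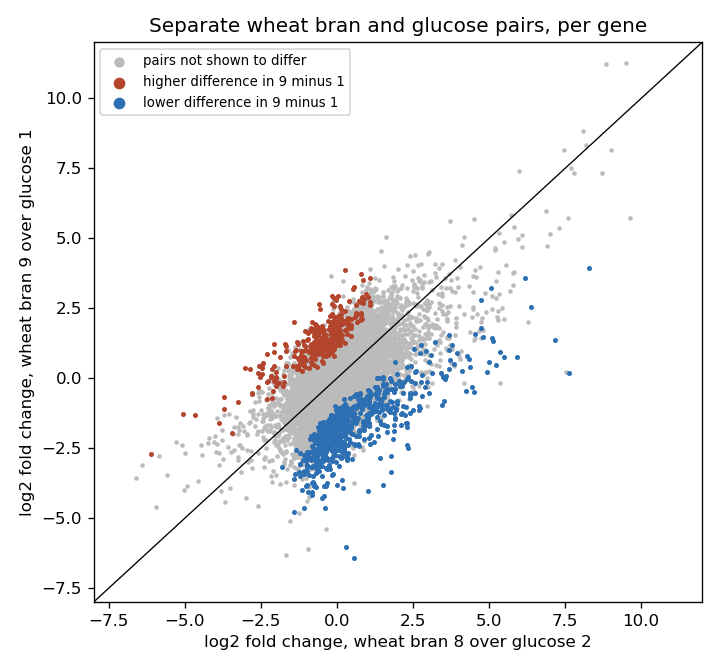
Log2 fold change of wheat bran 9 over glucose 1 against that of wheat bran 8 over glucose 2, 1 point per gene for 10990 genes, with the line of equal values. Coloured points are the 346 genes with a higher and the 759 with a lower difference in 9 over 1 at an adjusted p under 0.05, which the choice of points places off the line.

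Part of the genes that separated wheat bran from glucose in another pair were shifted the opposite way in 9 over 1, relative to the remaining pair. Such a shift can be a smaller difference or a reversed one. To lessen the overlap of choice and test, genes called in 8 against 2 were followed in the interaction of 9 over 1 with 7 over 3. That contrast holds neither compartment 8 nor 2, but the fit took the spread of each gene and the plate effects from all 27 libraries. Choice and test were therefore not independent, and the shares of all genes below were not matched for spread. Of the 957 genes higher on wheat bran 8, 209 (21.8%) had a lower difference in 9 over 1, against 12.2% of all genes, and 41 (4.28%) a higher one, against 8.65%. Of the 736 lower on wheat bran 8, 104 (14.1%) had a higher difference in 9 over 1, against 8.65%, and 81 (11%) a lower one, against 12.2%. In the reverse choice, 1030 genes were higher in 7 against 3, and 191 of them (18.5%) had a lower difference in 9 over 1 than in 8 over 2, against 6.91% of all genes, and 1 had a higher one. Of the 801 lower genes there, 97 (12.1%) had a higher difference, against 3.15%, and 9 a lower one. Without plate B the 4 shares shifted the opposite way were 29.7%, 18.5%, 8.19% and 4.18%, against 9.78%, 5.78%, 2.98% and 0.824% of all genes. Without plate C all were 0 because no gene passed. With library size scaling they were 39%, 5.99%, 41.6% and 4.57%, against 22.2%, 2.22%, 18.8% and 0.582%. Without plate A they were 17.4%, 10.3%, 11.2% and 11.8%, against 12.9%, 11%, 2.57% and 1.55%, so that the share among genes lower on wheat bran 8 was then no higher than among all genes. Of the 711 genes called higher in both other pairs, and so chosen for passing there, 368 were called higher in 9 against 1, where 19.2% of all genes were, 322 were not called and 21 were called lower. Of the 466 lower in both, 227 were called lower, where 21.5% of all genes were, 235 were not called and 4 were called higher. A gene not called in 9 against 1 is not thereby shown to have a smaller difference there.

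Some genes that were low on the other wheat bran compartments were higher on wheat bran 9, where they were not shown to differ from glucose 1. NRRL3_1765 had 28148, 17009 and 26213 CPM on wheat bran 9, and 24340, 7697 and 20457 on glucose 1. The groups overlapped, and the log2 fold change was 0.36 (SE 0.68, edgeR adjusted p = 0.71). On wheat bran 7 it had only 649, 1203 and 613 CPM, against 1542, 22270 and 8413 on glucose 3. On wheat bran 8 it had 1947, 3784 and 2108 CPM, against 12088, 35446 and 19695 on glucose 2. Its difference in 9 over 1 exceeded that in 7 over 3 by 3.75 on the log2 scale (SE 1.01, edgeR adjusted p = 0.013). The call was lost without plate B (2.88) or plate C (3.61) and in a fit of those 4 compartments alone (3.96).

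NRRL3_10014 had 754, 1676 and 2357 CPM on wheat bran 9, and 1147, 1195 and 1542 on glucose 1. These ranges overlapped too, at a log2 fold change of 0.32 (SE 0.55, edgeR adjusted p = 0.67). On wheat bran 7 it had 337, 208 and 215 CPM, against 2294, 5491 and 2752 on glucose 3. On wheat bran 8 it had 257, 697 and 359 CPM, against 2835, 4589 and 2246 on glucose 2. Its difference was higher in 9 over 1 than in 7 over 3 by 4.13 (SE 0.81, edgeR adjusted p = 0.0019), a call lost without plate C (3.98).

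NRRL3_7420, high on glucose 2, had 10.8, 16.7 and 13.2 CPM on wheat bran 9, and 30.7, 19.5 and 43.9 on glucose 1. The wheat bran 9 libraries were all lower, but the log2 fold change of -1.29 (SE 0.56) did not pass in edgeR, with an adjusted p of 0.067. On wheat bran 8 it had 3.73, 6.70 and 2.26 CPM, against 81.4, 169.6 and 206.4 on glucose 2. Its difference was higher in 9 over 1 than in 8 over 2 by 3.77 (SE 0.80, edgeR adjusted p = 0.0079), a call lost without plate B (3.69) or plate C (3.46). For this gene both arms moved, up from wheat bran 8 to 9 and down from glucose 2 to 1. NRRL3_11180 had 3.14, 8.43 and 7.35 CPM on wheat bran 9 and 3.60, 72.6 and 46.9 on glucose 1, where plate A was low. It fell in 9 against 1, with a log2 fold change of -2.71 (SE 0.78, edgeR adjusted p = 0.0082), and in 8 against 2 the log2 fold change was -6.11. On wheat bran 8 its mean was 2.38 ± 0.956 CPM, against 162 ± 62.8 on glucose 2. Its difference of 3.40 between the pairs (SE 1.07, edgeR adjusted p = 0.046) did not pass with library size scaling (2.47), without plate B (3.94) or C (3.25), or without the glucose 1 library of plate C (3.64) or the wheat bran 9 library of plate B (3.14) or C (3.19).

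In the other direction stood genes whose difference in 9 over 1 was below that in another pair. NRRL3_3709 had 194, 14.4 and 27.7 CPM on wheat bran 9, and 20.7, 24.9 and 10.3 on glucose 1, so that the groups overlapped. Its log2 difference was 3.22 on plate A and 1.42 on plate C, but -0.79 on plate B. On wheat bran 8 it had 471, 13.8 and 47.9 CPM, against 1.76, 0.515 and 0.349 on glucose 2. The difference of 9 over 1 minus that of 8 over 2 was -5.83 (SE 1.31), and minus that of 7 over 3 it was -7.78 (SE 1.36), with edgeR adjusted p of 0.0095 and 9.7e-04. The first call was lost without plate A (-5.93) or C (-5.92), the second without plate C (-5.78). Here glucose 1, at 18.6 ± 7.52 CPM, lay above glucose 2 and 3, at 0.875 ± 0.771 and 1.12 ± 0.912, so both arms contributed.

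NRRL3_701 had 2.98, 1.15 and 0.490 CPM on wheat bran 9, and 1.14, 30.9 and 20.9 on glucose 1, where plate A was low. On wheat bran 7 it had 50.1, 4.30 and 154 CPM, against 12.4, 5.30 and 4.51 on glucose 3. The fitted log2 fold changes had opposite signs, at -3.76 in 9 over 1 (SE 1.10, edgeR adjusted p = 0.0093). In 7 over 3 the value was 3.35 (SE 0.98, edgeR adjusted p = 0.021). By plate, NRRL3_701 went opposite ways only on plate C, as both pairs rose on plate A and both fell on plate B. Its difference in 9 over 1 minus that in 7 over 3 was -7.11 (SE 1.48, edgeR adjusted p = 0.0027), and the call was lost without plate C (-4.80) and in a fit of those 4 compartments alone (-6.49). NRRL3_43, also taken by the naming rule, was high in a single library. It had 449 CPM on wheat bran 8 of plate A, 1.31 and 0.841 on plates B and C, and 0.245 to 0.959 on wheat bran 9 and glucose 1. Its difference between pairs of -7.42 (SE 2.13, edgeR adjusted p = 0.03) became -1.18 without plate A, and the call was also lost without plate B (-8.52), without plate C (-7.85), and without the glucose 1 library of plate B (-7.34) or C (-7.04) or the wheat bran 9 library of plate A (-6.88) or C (-7.21).

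**Figure D4:**
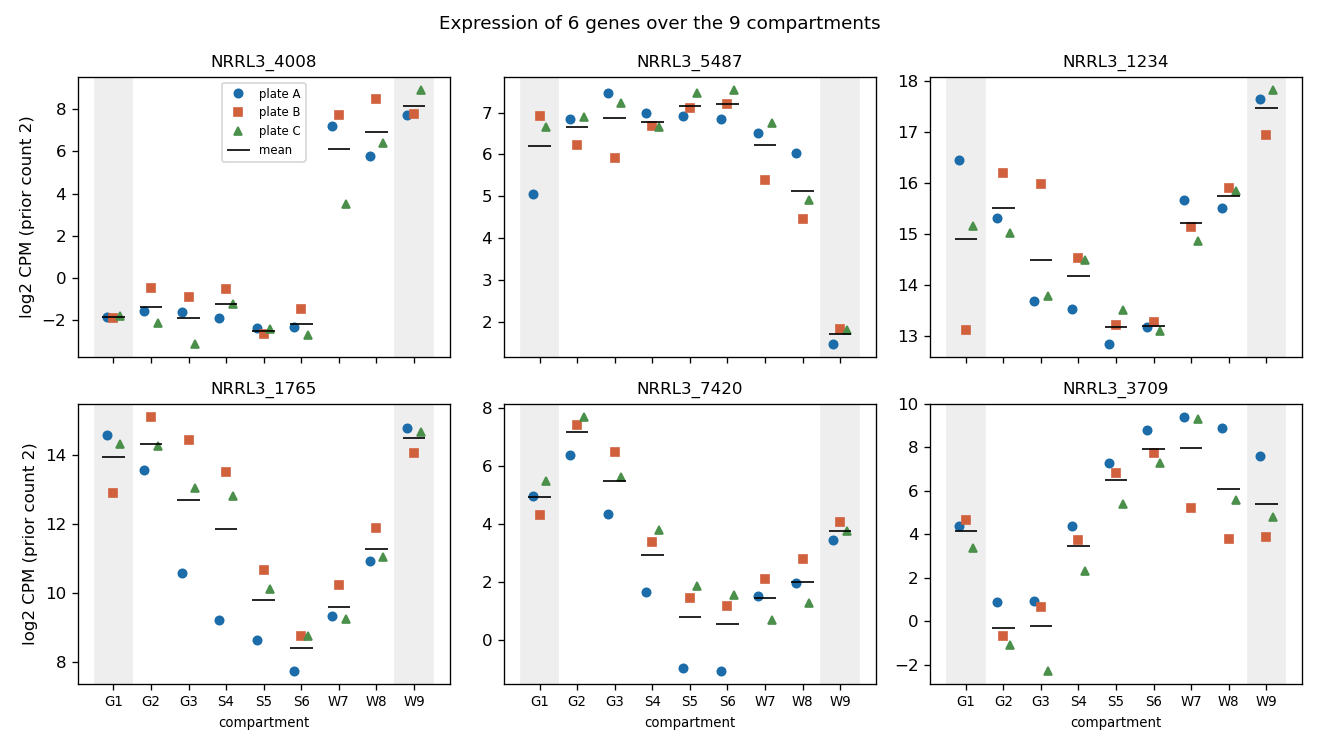
Log2 CPM (prior count 2) of 6 genes in each compartment of plates A, B and C, with the mean of the 3 plates as a line and glucose 1 and wheat bran 9 shaded; the axes do not start at 0 and differ between panels. NRRL3_4008 is high on each wheat bran compartment, NRRL3_5487 is lowest on wheat bran 9, and NRRL3_1765 on wheat bran 9 lies near its level on glucose 1.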

How the data were processed

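RNA was taken from mycelium cut out over each compartment, made into full-length cDNA with a low-input kit, fragmented and sequenced on an Ion Proton, per the labels' protocols. The authors deposited raw read counts per gene model in 1 table of 11846 IDs and 27 libraries. The submitters' processing notes list HTSeq and DESeq2, with neither version nor role. Aligner, genome build, annotation and use of strand: not given in the sources used here. Counts of genes that overlap or have near-identical copies are therefore uncertain. No molecular identifiers are named, so counts measure precision for counting error only. Totals ran from 8006891 to 24501824.

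The counts were analysed with edgeR 4.0.16 (R 4.3.3): filterByExpr, TMM, quasi-likelihood F-tests on all 27 libraries with 9 compartment groups and the plate as a block (10990 genes, 16 residual degrees of freedom), and Benjamini-Hochberg adjustment within a comparison. The block rests on the labels, which put the libraries of a plate in 1 colony. Deviations of wheat bran 9 and glucose 1 from their means correlated across genes at 0.25, 0.09 and 0.21 on plates A, B and C. SE is the log2 fold change over the square root of F. Log2 CPM used a prior count of 2. Within wheat bran 9 and glucose 1, no replicates agreed within sampling noise, with chi-square per degree of freedom of 39.6 or more. Code was checked on simulated data.

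Members, lists and tests were chosen with earlier results of these data known. The naming rule took, per test, called genes whose mean log2 CPM was at least 4 and whose direction was the same on all 3 plates, and kept the 2 that rose and the 2 that fell most; for 9 against 1 it also took the 2 largest rises and falls in CPM. Alternatives were other scaling factors, no filter, DESeq2 1.42.0, fewer libraries, no block, each plate left out and, added after seeing the data, each of the 6 libraries left out and thinning to 8006891 counts.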

Additional observations from a re-analysis of the deposited data

Results flagged for a closer look

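The difference of wheat bran over glucose was tested between pairs of compartments, and it differed in 1105 genes between 9 over 1 and 8 over 2 and in 2294 genes between 9 over 1 and 7 over 3, with 0 genes in both without plate C. Of the genes described for the former, the log2 difference between pairs was 3.77 for NRRL3_7420, 3.40 for NRRL3_11180, -7.42 for NRRL3_43 and -5.83 for NRRL3_3709. Of those described for the latter, it was 4.13 for NRRL3_10014, 3.75 for NRRL3_1765, -7.78 for NRRL3_3709 and -7.11 for NRRL3_701. The low depth and TMM factors of wheat bran 9, and the spread of glucose 1 between plates, move with these differences, and their part in them was not tested beyond the alternatives. With all libraries thinned to the shallowest total, 1018 and 2171 genes passed, and in fits of only the compartments concerned 606 and 420.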

How the results depend on the processing

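The 9 against 1 count stayed within 1.5 times its 4474 with other scaling factors, no filter, DESeq2, a fit of the 6 libraries alone (3203), no plate block (4182) and thinning (4292), and ran from 1612 to 5111 on leaving out a plate or 1 of its libraries. Of 270 combinations of a named gene and an alternative, 238 kept the call and 32 lost it, with 0 reversed. The 8 against 2 count ran from 266 to 2186 and the 7 against 3 count from 221 to 2390 on leaving out plates or libraries, the lowest without plate C, and 7 against 3 gave 1118 with its own libraries alone. For the difference of 9 over 1 from 8 over 2, 2129 genes passed with library size scaling, 1704 with DESeq2 and 606 with those compartments alone, and 0 to 1730 on leaving out plates or libraries. For the difference from 7 over 3 the values were 420 with those compartments alone and 0 to 2823 on leaving out. Without the plate block these interactions gave 857 and 1962 genes. The genes chosen in 8 against 2 had median log2 fold changes in 9 against 1 of 0.60 (higher) and -1.96 (lower) with library size scaling, and 32.8% to 68.8% of the lower ones were called on leaving out a plate. The distances from wheat bran 9 to sugar beet pulp 4, 5 and 6 rose to 1.93, 2.24 and 2.26 with library size scaling, and that from glucose 1 to glucose 3 to 1.24. Apart from scaling and the omitted libraries, the cause of these shifts was not tested. The effect of depth was tried by thinning alone.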
